A study of Rattus norvegicus with 8 samples.

Results

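The clustered histone genes are the 34 rows, with 29 gene symbols, whose symbol begins with Hist, a digit and h, among the 15115 genes of the authors' deposited table. Rows that repeat a symbol were kept apart by their Ensembl identifier. The set was selected on the FPKM levels of the same comparison that is described here, so the values below describe the members and serve as no evidence about them. RNA-seq was done on livers of wild type male F344 rats. In the CDAA_PTS group the rats ate a choline-deficient L-amino acid-defined (CDAA) diet to which pterostilbene, a dimethyl ether of the stilbenoid resveratrol, was added at 1.34 g/kg. In the CDAA group they ate the same diet without the compound. Rats are labelled as 1 year old, and the study ran for 60 weeks, of which the first 3 weeks were on a choline-sufficient diet (CSAA), with pterostilbene already present for the CDAA_PTS rats. Libraries came from 4 of the 6 rats of each group. Each cage held a pair of rats, and the sources used here do not name cage mates. A resveratrol group carries the same short name in the series text, but every CDAA_PTS sample here is labelled with pterostilbene. Pieces taken in the study could be tumour, nodule or normal liver, and the sources used here do not say which of these a library holds.

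Canonical histones package DNA: H2A, H2B, H3 and H4 form the nucleosome core, and H1 binds the linker DNA between nucleosomes. Their genes lie in clusters, mostly lack introns and are transcribed mainly in S phase, when new DNA needs new nucleosomes. Most of their mRNAs end in a conserved stem-loop in place of a poly(A) tail. The stem-loop binding protein Slbp holds that loop, and the U7 snRNP with a cleavage complex trims the end. Some of these genes also give polyadenylated transcripts, mainly in cells that have stopped dividing. The sources used here do not say whether the libraries were made from poly(A)-selected RNA, and a change in transcription and a change in the polyadenylated share of a transcript cannot be told apart in such values. In liver bulk RNA, fewer cells in S phase and less histone mRNA per cell cannot be told apart either.

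The authors' deposited table holds 1 FPKM value for each group and no value per rat, so no spread between rats and no depth per library can be given. FPKM counts fragments per kilobase of gene, scaled to the mapped fragments of the library, and is meant to allow levels to be compared between genes. Among near-identical histone rows that comparison is uncertain, as the Hist2h3c2 rows below show. A fold change below is the log2 fold change of the authors' edgeR block, CDAA_PTS over CDAA, unless another tool is named. A gene is called when the adjusted p over all genes is under 0.05. In the authors' deposited table the livers carried their hepatocyte markers, with a median of 2202 FPKM in CDAA_PTS and 1869 FPKM in CDAA over 10 of 10 genes, although Alb is listed at 0 FPKM in both groups with a mean of 107899 CPM (counts scaled by library size). An FPKM listed at 0 in this table is therefore not always an absent transcript. Over 8 lists of cell type markers, 61 genes were measured, and edgeR and DESeq2 each called 1 higher (Ass1, an enzyme of the urea cycle) and 0 lower in the authors' deposited table. Cuffdiff called 4 higher and 0 lower, Ass1 with Dcn, Lum and Sox9. Median fold changes of those lists lay between -0.09 and 0.37. Of the cholangiocyte markers 8 of 8 were above 0 (median 0.22), of the T and NK cell markers 7 of 9 (0.36) and of the erythroid rows 6 of 7 (0.37), without a call by edgeR in these 3 lists (authors' deposited table). What any of these genes contributes to the histone values was not tested.

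In the authors' deposited table, 32 of the 34 rows had a fold change below 0 (94.1%), against 49.0% of all genes. The median fold change was -0.64, against 0.01 over all genes, and the rows ranged from -2.05 to 0.04. The edgeR block of the authors' deposited table called 8 of the 34 lower and 0 higher, beside 3.41% of all genes called in either direction and 1.95% called lower. Because this comparison was used to choose the members, nothing is read from that difference. An unadjusted edgeR p under 0.05 was listed for 17 of the 34. The DESeq2 block of the authors' deposited table called 7 lower of the 24 rows that have an adjusted p, beside 2.5% of all genes called lower. Its Cuffdiff block called 3 lower of 33 tested, beside 2.7%. The 7 DESeq2 calls are all among the 8 edgeR calls, 3 rows were called by all 3 tools, and 26 by none. No row was called higher by any of the 3 tools.

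**Figure D1:**
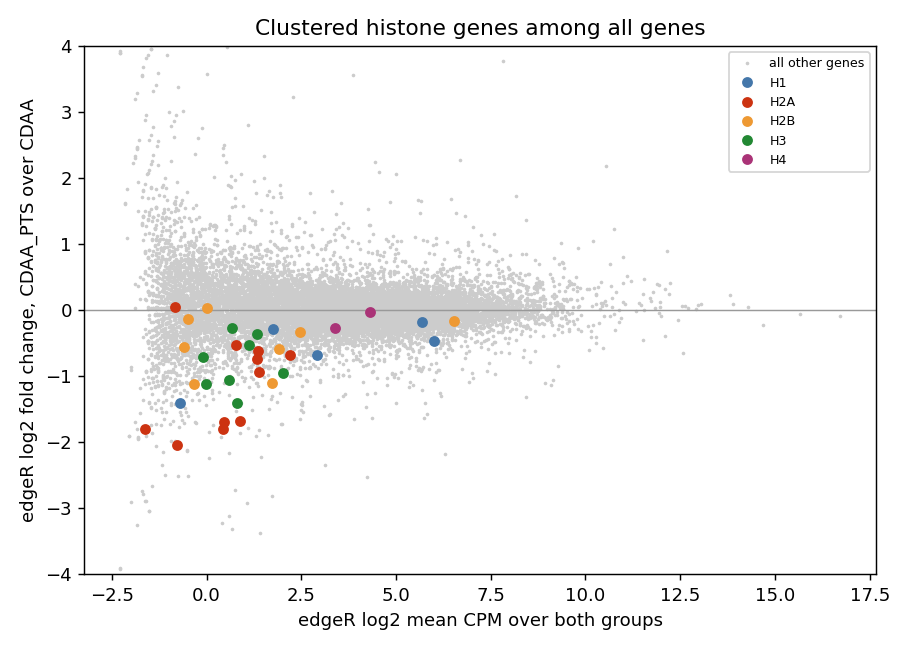
Each point is 1 gene of the authors' deposited table, with the log2 of its mean CPM over both groups on the x axis and its edgeR log2 fold change, CDAA_PTS over CDAA, on the y axis. Coloured points are the 34 clustered histone rows by class and grey points all other genes, of which 30 lie outside a y axis that reaches 4 in either direction. The histone rows sit below 0 except 2, with the largest sizes at the low end of expression.

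Over all 34 rows the summed FPKM was 488 in CDAA_PTS against 617 in CDAA, which is 20.8% lower in CDAA_PTS (log2 ratio -0.34, computed from the authors' deposited table). Of the members, 25 had a mean of at least 1 CPM over all libraries and 9 were under it. In terms of FPKM, 6 members had a mean over the groups of at least 20 FPKM, and they held 82.8% of the members' summed FPKM in CDAA_PTS and 75.7% in CDAA. In the authors' deposited table they had a median fold change of -0.23, against -0.73 for the other 28. Those 28 summed to 83.9 FPKM in CDAA_PTS and 150 FPKM in CDAA, a sum 44.0% lower in CDAA_PTS. Across the 34 rows the rank correlation of mean FPKM with fold change was 0.35, against -0.09 across all 15115 genes. This correlation is across genes of the same 8 libraries, and genes are not independent replicates.

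**Figure D2:**
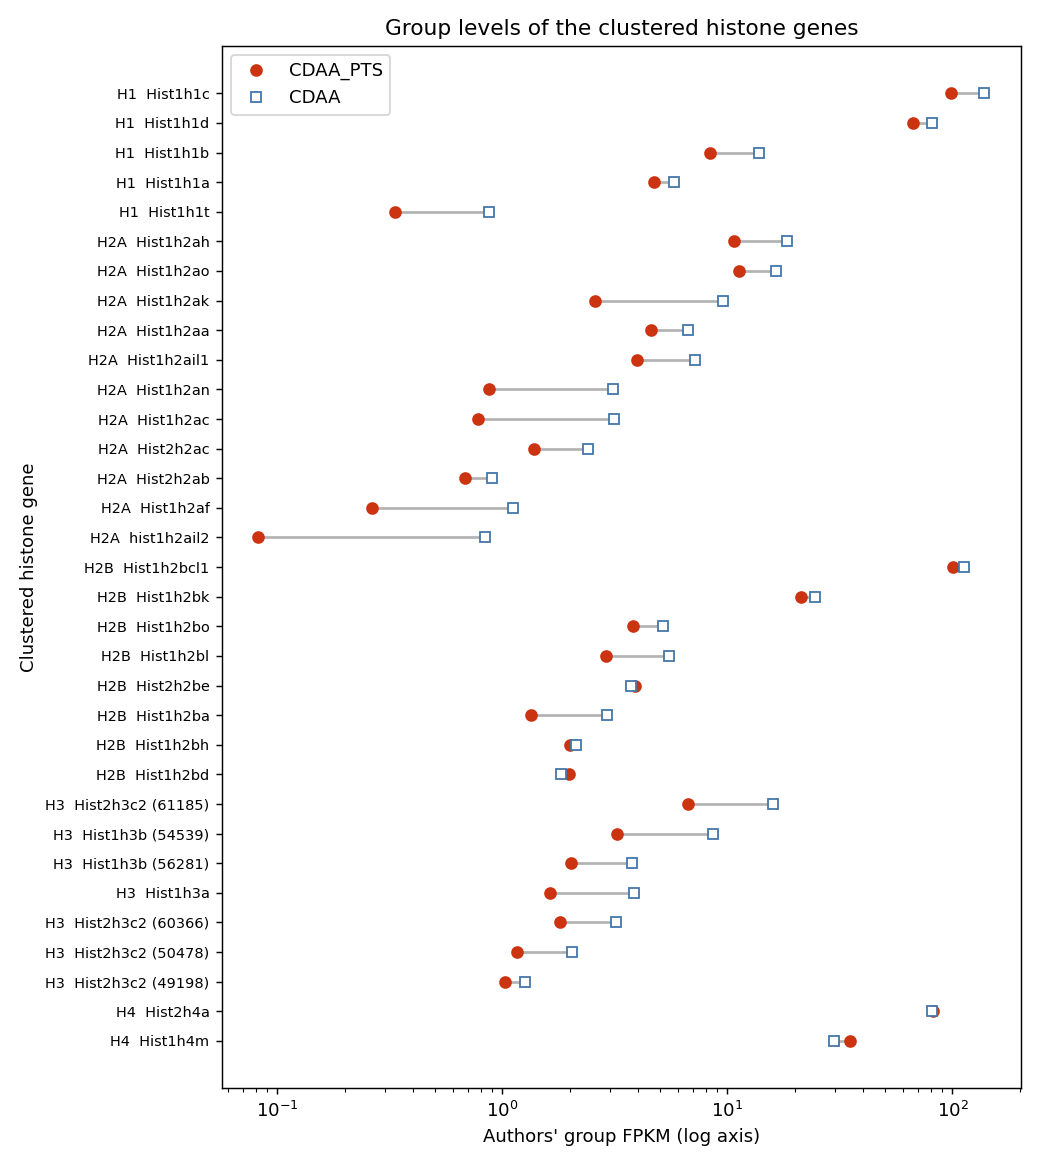
Group FPKM of each clustered histone row in the authors' deposited table, on a log axis, by class and then by mean level, with CDAA_PTS as filled circles and CDAA as open squares. Rows with a repeated symbol carry the last 5 digits of their Ensembl identifier, and 1 row listed at 0 FPKM in both groups is not drawn. CDAA_PTS lies left of CDAA in 29 rows and right of it in Hist1h2bd, Hist2h2be, Hist1h4m and Hist2h4a.

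Among the 34 rows, the linker histone genes formed the class with the highest summed level in the authors' deposited table, 179 FPKM in CDAA_PTS and 240 FPKM in CDAA, 25.2% lower in CDAA_PTS. With the histone rows of other symbols in the loci counted, the sum of H4 was higher, 386 FPKM in CDAA_PTS and 420 FPKM in CDAA, against 203 FPKM in CDAA_PTS and 267 FPKM in CDAA for H1 (authors' deposited table). For the 5 linker rows the median fold change was -0.47, and 2 of 5 were called. Hist1h1c, a somatic linker histone gene at 43639749 to 43640387 on chromosome 17 of rn6, had 98.9 FPKM in CDAA_PTS and 138 FPKM in CDAA in the authors' deposited table. It was called by all 3 tools, at -0.47 (edgeR adjusted p 0.029, DESeq2 adjusted p 0.022, Cuffdiff q 0.016, authors' deposited table), with a moderated DESeq2 value of -0.43 and an authors' standard error of 0.13. It combined a high level with the smallest fold change among the 8 called rows. Hist1h1b had 8.39 FPKM in CDAA_PTS and 13.8 FPKM in CDAA and was called at -0.67 (edgeR adjusted p 0.020, authors' deposited table), while its Cuffdiff q was 0.13. Hist1h1d, with 67.0 FPKM in CDAA_PTS and 81.0 FPKM in CDAA, did not pass (-0.18, edgeR adjusted p 0.57, authors' deposited table). The group levels of Hist1h1a were 4.72 FPKM in CDAA_PTS and 5.76 FPKM in CDAA in the authors' deposited table, also without a call.

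Among the core histone members, the genes with an H2A symbol had the most called rows, 4 of 11, with a median of -0.94. Their summed level was 37.1 FPKM in CDAA_PTS against 69.7 FPKM in CDAA in the authors' deposited table, 46.8% lower in CDAA_PTS. All 11 had the lower FPKM in CDAA_PTS. Class here follows the symbol alone. Most rows with an H2A symbol and a locus of their own span 393 bases. Hist1h2ao spans 312 bases, as Hist1h4m and Hist2h4a do, and Hist1h2ail1 spans 411 bases, as H3 rows do. The class of both rows is therefore uncertain, and so are the H2A, H3 and H4 figures to that extent. Neither row was called. With the histone rows of other symbols in the loci counted, edgeR called 4 of 14 H2A rows and 4 of 11 H3 rows. Hist1h2ak, whose locus in rn6 is chromosome 17, 44840990 to 44841382, had 2.57 FPKM in CDAA_PTS and 9.50 FPKM in CDAA in the authors' deposited table. It had the lowest edgeR adjusted p of the members, at -1.68 (0.0089, with a DESeq2 adjusted p of 0.0097 and a Cuffdiff q 0.0019, authors' deposited table), and DESeq2 gave it a moderated -0.79 with an authors' standard error of 0.21. Hist2h2ac, from the chromosome 2 locus, had 1.39 FPKM in CDAA_PTS and 2.41 FPKM in CDAA and was called at -0.94 (edgeR adjusted p 0.035, authors' deposited table).

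The other called H2A rows, like Hist2h2ac, were at low FPKM. In mean CPM over both groups, however, Hist2h2ac (2.60) lay above Hist1h2ak (1.85). Hist1h2ac had 0.778 FPKM in CDAA_PTS and 3.12 FPKM in CDAA, at -1.80 (edgeR adjusted p 0.047, authors' deposited table). hist1h2ail2 had 0.0823 FPKM in CDAA_PTS and 0.833 FPKM in CDAA, at -2.05 (edgeR adjusted p 0.037, authors' deposited table), and it was called by edgeR alone: the authors give it no DESeq2 adjusted p. A large fold change was not enough for a call at these levels. Hist1h2af, which had 0.263 FPKM in CDAA_PTS against 1.12 FPKM in CDAA and a fold change of -1.81, was not called (edgeR adjusted p 0.34, authors' deposited table), and neither was Hist1h2an, at -1.70 with 0.867 FPKM in CDAA_PTS and 3.11 FPKM in CDAA (edgeR adjusted p 0.10, authors' deposited table). The 2 rows of the highest FPKM with an H2A symbol were not called either, 1 of them Hist1h2ao, whose class is uncertain. Hist1h2ah had 10.6 FPKM in CDAA_PTS and 18.4 FPKM in CDAA (-0.68, edgeR adjusted p 0.14, authors' deposited table), and Hist1h2ao had 11.2 FPKM in CDAA_PTS and 16.5 FPKM in CDAA (-0.61, edgeR adjusted p 0.27, authors' deposited table). Hist1h2ail1 had 3.98 FPKM in CDAA_PTS and 7.17 FPKM in CDAA and was not called (-0.74, edgeR adjusted p 0.19, authors' deposited table). Hist2h2ab was the H2A row with a fold change above 0 (0.04), with 0.681 FPKM in CDAA_PTS and 0.897 FPKM in CDAA in the authors' deposited table, so its edgeR and FPKM values differ in direction.

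The H2B genes, the partners of H2A in the nucleosome dimer, had 0 of 8 rows called by edgeR, 0 by DESeq2 and 0 by Cuffdiff, with 2 at an unadjusted edgeR p under 0.05 in the authors' deposited table. Their median fold change was -0.45 by edgeR and -0.18 by Cuffdiff (authors' deposited table). The summed level was 137 FPKM in CDAA_PTS and 158 FPKM in CDAA, 13.0% lower in CDAA_PTS, and most of it came from 1 row. That row, Hist1h2bcl1, had 100.2 FPKM in CDAA_PTS and 112 FPKM in CDAA (-0.17, edgeR adjusted p 0.83, authors' deposited table). Its locus spans 9901 bases, against 745 bases or fewer for the other 29 members whose locus holds no other row. With locus starts read as counting from 0, 26 of those 30 spans are a multiple of 3 bases, as a coding length is, and that tally is the reason for this reading. Hist1h2bk had 21.3 FPKM in CDAA_PTS and 24.4 FPKM in CDAA (-0.34, edgeR adjusted p 0.50, authors' deposited table). Hist1h2bl, with 2.90 FPKM in CDAA_PTS against 5.49 FPKM in CDAA, came nearest to the threshold (-1.10, edgeR adjusted p 0.075, authors' deposited table). Hist1h2bo had 3.81 FPKM in CDAA_PTS and 5.18 FPKM in CDAA (-0.60, edgeR adjusted p 0.54, authors' deposited table), and Hist1h2bd had 1.97 FPKM in CDAA_PTS and 1.81 FPKM in CDAA, with edgeR at -0.14 and Cuffdiff at 0.12 in the authors' deposited table.

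Among the 34 rows, the H3 genes had the lowest summed level of the 5 classes and the largest relative difference, 17.5 FPKM in CDAA_PTS and 38.6 FPKM in CDAA in the authors' deposited table, 54.6% lower in CDAA_PTS. Their median fold change was -0.84, all 8 rows were below 0 and 2 were called. In 1 row named Hist1h3b (ENSRNOG00000054539) the level was 3.23 FPKM in CDAA_PTS and 8.64 FPKM in CDAA, called at -1.41 (edgeR adjusted p 0.010, DESeq2 adjusted p 0.016, authors' deposited table) with a Cuffdiff q of 0.34. The other row of that symbol (ENSRNOG00000056281) had 2.02 FPKM in CDAA_PTS and 3.75 FPKM in CDAA and was not called (-0.71, edgeR adjusted p 0.61, authors' deposited table). Hist1h3a had 1.63 FPKM in CDAA_PTS and 3.85 FPKM in CDAA (-1.11, edgeR adjusted p 0.36, authors' deposited table).

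Hist2h3c2 stands on 5 rows, 3 on chromosome 17 and 2 on chromosome 2, all below 0. The chromosome 17 row ENSRNOG00000061185 (rn6, 43776050 to 43776460) had 6.67 FPKM in CDAA_PTS and 15.9 FPKM in CDAA and was called by all 3 tools (-0.96, edgeR adjusted p 0.031, DESeq2 adjusted p 0.029 and Cuffdiff q 0.0035, authors' deposited table). The other 4 rows were not called, and ranged from -0.27 (ENSRNOG00000049198, 1.03 FPKM in CDAA_PTS and 1.26 FPKM in CDAA) to -1.06 (ENSRNOG00000053081) in the authors' deposited table. That last row is listed at 0 FPKM in both groups and was not tested by Cuffdiff, although its mean over the groups is 1.51 CPM, with 0.068 as the adjusted p from edgeR in the authors' deposited table. Between them, ENSRNOG00000050478 had 1.16 FPKM in CDAA_PTS and 2.04 FPKM in CDAA, and ENSRNOG00000060366 had 1.80 FPKM in CDAA_PTS and 3.20 FPKM in CDAA, at -0.37 and -0.53 in the authors' deposited table. H3 genes differ little in coding sequence, and the sources used here do not say how reads that match several of them were assigned, so the split between rows of 1 symbol, and between other near-identical histone genes, is uncertain. FPKM and CPM part here: ENSRNOG00000050478 and ENSRNOG00000061185 both span 411 bases. Their means were 2.51 and 4.01 CPM, but 1.60 and 11.3 FPKM over the groups. The class sums and level ranks in FPKM share this limit.

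H4 was the class in which both rows with its symbol had the higher FPKM in CDAA_PTS. Hist1h2ao, which has the same 312-base span under an H2A symbol, had the lower FPKM in CDAA_PTS. Hist2h4a had 82.1 FPKM in CDAA_PTS and 81.1 FPKM in CDAA, at -0.03 (edgeR adjusted p 0.99, authors' deposited table). Hist1h4m had 34.9 FPKM in CDAA_PTS and 29.9 FPKM in CDAA, yet its edgeR value was -0.28 (edgeR adjusted p 0.46, authors' deposited table). The median of these 2 rows was -0.15 by edgeR and 0.12 by Cuffdiff, so the direction of the class depends on the tool. Their sum was 117 FPKM in CDAA_PTS and 111 FPKM in CDAA, 5.47% higher in CDAA_PTS. A further 6 rows inside the histone loci are annotated as H4 but carry RGD or LOC symbols. Over all 8 H4 rows the edgeR median was -0.31, with 0 calls by edgeR. Their sum was 386 FPKM in CDAA_PTS against 420 FPKM in CDAA in the authors' deposited table, 8.17% lower in CDAA_PTS. Cuffdiff called the RGD1562378 rows ENSRNOG00000054017 (-0.48, Cuffdiff q 0.021) and ENSRNOG00000057690 (-1.01, Cuffdiff q 0.041) lower in the authors' deposited table.

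**Figure D3:**
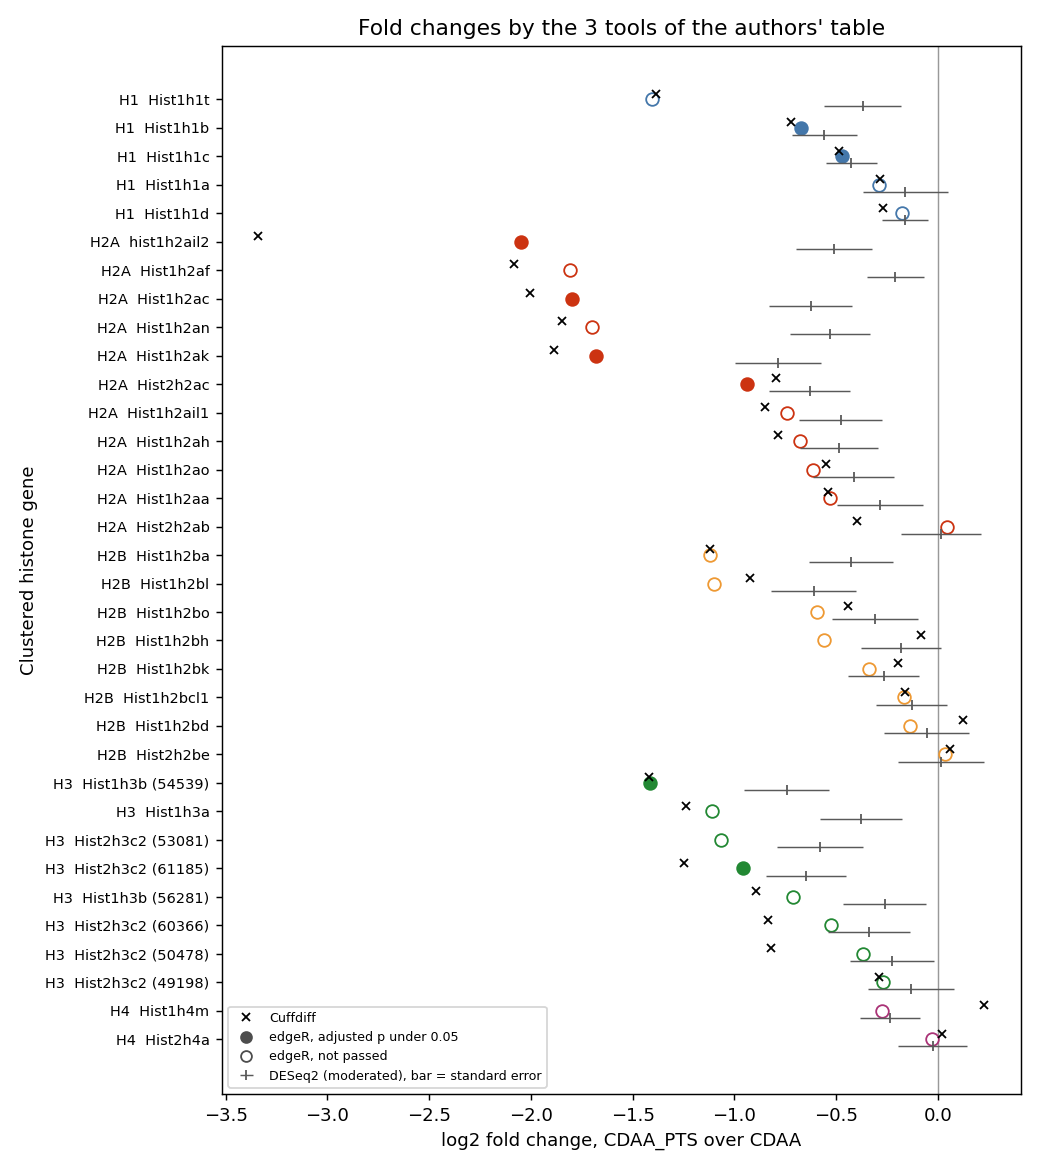
Log2 fold changes, CDAA_PTS over CDAA, of the 34 clustered histone rows by the 3 tools of the authors' deposited table, ordered by class. Circles are edgeR (filled where the adjusted p is under 0.05), crosses Cuffdiff, and bars the moderated DESeq2 value with the authors' standard error, and the Cuffdiff cross of the row listed at 0 FPKM is left out. DESeq2 values lie closer to 0 than edgeR values for low rows, and the H4 rows lie between -0.28 (edgeR) and 0.23 (Cuffdiff).

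Members whose known site of expression is the testis were also in the table; they were singled out for that role after their values were seen. Hist1h1t, the testis linker histone, had 0.333 FPKM in CDAA_PTS and 0.869 FPKM in CDAA (-1.40, edgeR adjusted p 0.23, authors' deposited table). Hist1h2aa had 4.59 FPKM in CDAA_PTS and 6.69 FPKM in CDAA (-0.53, edgeR adjusted p 0.56, authors' deposited table), and its neighbour Hist1h2ba had 1.35 FPKM in CDAA_PTS and 2.93 FPKM in CDAA (-1.12, edgeR adjusted p 0.23, authors' deposited table). None of these was called.

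By the cluster number in the symbol, the Hist1 cluster had 25 rows with a median of -0.68 and 6 calls, and the Hist2 cluster 9 rows with a median of -0.37 and 2 calls in the authors' deposited table. The Hist2 median was -0.03 with 1 row per symbol and 0.0015 without the rows of repeated symbols. No row carried a Hist3 or Hist4 symbol. The symbols and the rn6 positions of the authors' deposited table do not coincide: Hist2h4a and 3 rows of Hist2h3c2 lie on chromosome 17 among Hist1 genes, and Hist1h4m lies on chromosome 4 at 170763605 to 170763916. By position, 28 rows lie on chromosome 17, 5 on chromosome 2 and 1 on chromosome 4. The chromosome 17 rows had a median of -0.68 with 7 calls, all 28 below 0, and the chromosome 2 rows a median of -0.53 with 1 call in the authors' deposited table. On chromosome 17 a gap of over 500 kb separates 2 blocks. The first block, 16 rows, had a median of -0.57, 2 calls and a summed level of 396 FPKM in CDAA_PTS against 495 FPKM in CDAA in the authors' deposited table. The second block, 12 rows, had a median of -0.91, 5 calls and a summed level of 49.9 FPKM in CDAA_PTS against 81.8 FPKM in CDAA in the authors' deposited table (39.0% lower in CDAA_PTS). In the second block Hist1h1b, Hist1h2an, Hist1h2bo and the called Hist1h3b row stand in 1 merged locus, 44756555 to 44793927, together with LOC690171. The difference between blocks was not tested. Rows of at least 20 FPKM made up 4 of 16 in the first block and 1 of 12 in the second.

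**Figure D4:**
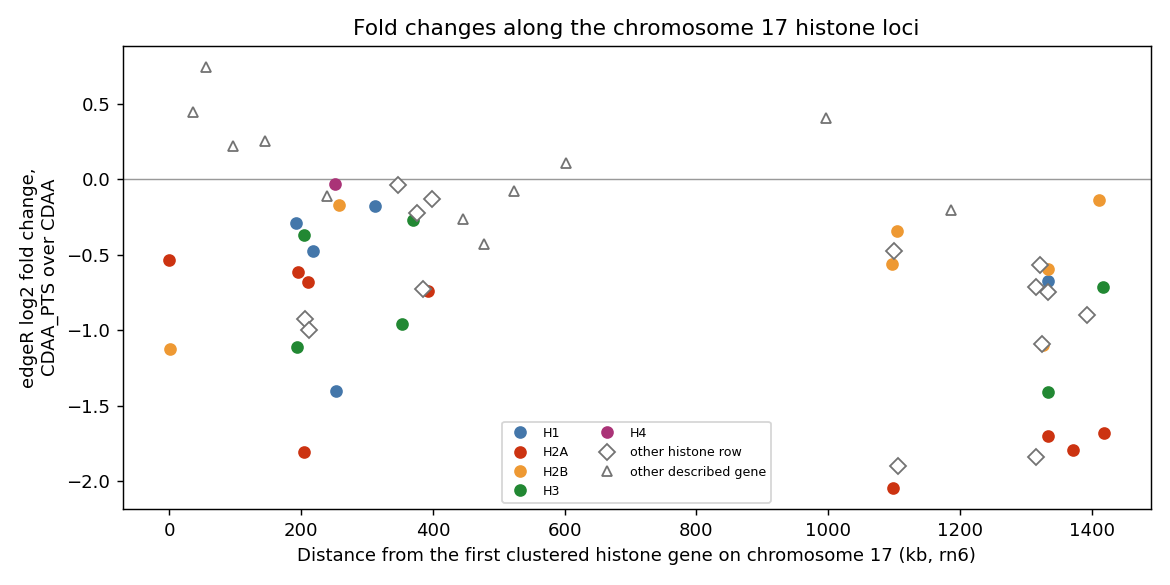
The edgeR log2 fold changes, CDAA_PTS over CDAA, along the chromosome 17 histone loci in the authors' deposited table, against the distance in kb from the first clustered histone gene. Coloured circles are the members by class, diamonds other histone rows and triangles other described genes. The histone rows lie below 0 throughout, while the described non-histone genes between them lie on both sides of 0.

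The loci hold genes that the symbol rule does not take. These were sorted into histones and others by their descriptions or RefSeq symbols after the values were seen. LOC684762 was taken as a histone by its RefSeq symbol alone. All 15 other histone rows were below 0, against 49.0% of all genes, with a median of -0.73. EdgeR called 3 of them lower in the authors' deposited table, beside 1.95% of all genes called lower. DESeq2 called 2 of them lower and Cuffdiff 3, and LOC690171 was called by neither. Because the rows were sorted after their values were seen, nothing is read from these shares. LOC100364835 (RefSeq H2bc6), an H2B gene, had 0.740 FPKM in CDAA_PTS and 2.85 FPKM in CDAA, at -1.84 (edgeR adjusted p 0.0055, authors' deposited table). LOC684762 (RefSeq H3c13), an H3 gene, had 3.31 FPKM in CDAA_PTS and 8.91 FPKM in CDAA (-0.73, edgeR adjusted p 0.047, authors' deposited table), and LOC690171, described as similar to the variant histone H3.3 (RefSeq H3f3a-ps3, named as a pseudogene), had 6.64 FPKM in CDAA_PTS and 11.6 FPKM in CDAA (-0.75, edgeR adjusted p 0.041, authors' deposited table). With these rows counted, edgeR called 11 of 49 histone rows of the loci lower. Of the 11, 4 were H3, LOC690171 included, and 1 was H2B. Non-histone neighbours lay on both sides of 0. Of the 11 described genes, 5 were below 0 and 6 above, with a median of 0.11. Slc17a1, a phosphate and organic anion carrier of kidney and liver, had 31.3 FPKM in CDAA_PTS and 18.8 FPKM in CDAA and was called higher (0.75, edgeR adjusted p 9.4e-05, authors' deposited table). Its relative Slc17a4 had 20.2 FPKM in CDAA_PTS and 14.6 FPKM in CDAA and was also called higher (0.45, edgeR adjusted p 0.045, authors' deposited table). Hfe, a regulator of iron uptake, had 22.5 FPKM in CDAA_PTS and 24.4 FPKM in CDAA and was not called (-0.11 in the authors' deposited table). A further 3 rows in the loci have no description, and all were below 0.

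The promoters of clustered histone genes are known to carry TATA boxes and CCAAT boxes, and those of H2B genes an octamer bound by Oct-1. The RefSeq promoter windows of the GRCr8 assembly, each 300 bases long and reaching from 250 bases before to 50 bases after the start, were searched on both strands for the TATA box letters TATAAA, for the CCAAT box, for the octamer as ATTTGCAT and for the GC box as GGGCGG. Of the 27 symbols found on 1 row, 21 matched exactly 1 promoter, 20 of them lay on the same chromosome as in the authors' deposited table, and 11 kept their distance to a neighbouring member within 500 bases in both assemblies. The 4 windows printed here are H2A genes of that last group, picked to run from a called member to the member with the highest fold change, after the values were seen. Capitals mark the searched motifs on either strand. Hist1h2ak (RefSeq H2ac4) is at chr17:47496078-47496377 on the minus strand, Hist2h2ac (H2ac20) at chr2:186469177-186469476 on the minus strand, Hist1h2aa (H2ac1) at chr17:41599623-41599922 on the minus strand, and Hist2h2ab (H2ac21) at chr2:186467974-186468273 on the plus strand, all in GRCr8.
Hist1h2ak: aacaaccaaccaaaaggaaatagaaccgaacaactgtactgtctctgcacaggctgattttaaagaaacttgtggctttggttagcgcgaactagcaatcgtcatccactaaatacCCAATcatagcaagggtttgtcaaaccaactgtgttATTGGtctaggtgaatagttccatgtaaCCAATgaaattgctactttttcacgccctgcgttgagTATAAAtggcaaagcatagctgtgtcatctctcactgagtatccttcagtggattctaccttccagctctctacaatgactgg
Hist2h2ac: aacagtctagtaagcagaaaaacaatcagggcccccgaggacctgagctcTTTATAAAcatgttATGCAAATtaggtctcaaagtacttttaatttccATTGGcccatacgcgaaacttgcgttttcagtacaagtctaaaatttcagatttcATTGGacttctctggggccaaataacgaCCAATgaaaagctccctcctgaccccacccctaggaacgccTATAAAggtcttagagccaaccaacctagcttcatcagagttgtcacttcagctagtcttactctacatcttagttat
Hist1h2aa: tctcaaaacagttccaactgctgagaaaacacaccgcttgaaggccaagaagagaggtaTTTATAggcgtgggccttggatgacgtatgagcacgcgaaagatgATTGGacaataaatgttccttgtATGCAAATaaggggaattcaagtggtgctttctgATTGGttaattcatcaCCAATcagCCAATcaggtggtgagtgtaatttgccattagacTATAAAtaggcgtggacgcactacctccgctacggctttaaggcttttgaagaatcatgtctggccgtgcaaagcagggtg
Hist2h2ab: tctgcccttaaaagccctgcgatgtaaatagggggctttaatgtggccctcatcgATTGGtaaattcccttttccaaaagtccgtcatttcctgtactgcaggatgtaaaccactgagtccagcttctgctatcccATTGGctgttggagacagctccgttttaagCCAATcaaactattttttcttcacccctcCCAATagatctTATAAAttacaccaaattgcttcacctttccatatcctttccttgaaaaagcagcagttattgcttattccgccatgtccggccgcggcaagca
In Hist1h2ak the TATAAA begins 33 bases before the start (position -33), and in Hist2h2ab it begins at -44. The windows of Hist2h2ac and Hist1h2aa each hold an octamer on the opposite strand, so it is printed as ATGCAAAT. Those of Hist1h2ak and Hist2h2ab hold none. In Hist2h2ac, TTTATAAA is 2 overlapping TATAAA matches on opposite strands. CCAAT was found in 11 of the 11 windows, against 37.5% of all 33469 promoters of the same length. TATAAA was found in 9 of them (81.8%), against 14.2% of all promoters. The octamer was found in 7 (63.6%), against 1.78%. GGGCGG was found in 4 (36.4%), against 33.1%. In all 20 windows on the same chromosome the shares were 95.0% for CCAAT, 70.0% for TATAAA, 45.0% for the octamer and 45.0% for GGGCGG. Among the 11, the windows of Hist2h2ac and Hist2h2be overlap, as do those of Hist1h2aa and Hist1h2ba, so a motif in the shared bases is counted in both windows. Motif matches are letters in a window and were not tested as binding sites.

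H2A and H2B genes often stand head to head and share the DNA between them. Within 500 bases of each other lay 7 pairs of an H2A and an H2B row, 6 of them with at least 1 member. The listed spans lay 264 to 323 bases apart. Strand was not used to choose these pairs, and rows of the merged locus, Hist1h2an and Hist1h2bo included, were left out of the search. In 4 of the 7 the H2A fold change was the lower one. The pair without a member is the called H2B gene LOC100364835 at -1.84 and the H2A gene LOC100910554 at -0.72 (authors' deposited table). Of the 3 pairs with both genes among the members, Hist2h2ac was called at -0.94 while Hist2h2be, with 3.87 FPKM in CDAA_PTS and 3.72 FPKM in CDAA, was at 0.03 in the authors' deposited table. Their promoter windows, printed above for Hist2h2ac, overlap by 275 bases on opposite strands. In the second pair hist1h2ail2 was called at -2.05 and Hist1h2bh was at -0.56 (edgeR adjusted p 0.71, authors' deposited table), with 1.99 FPKM in CDAA_PTS and 2.11 FPKM in CDAA. In the third, Hist1h2aa was at -0.53 and Hist1h2ba at -1.12 in the authors' deposited table, and their windows overlap by 261 bases. The difference between the genes of a pair was not tested.

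Histone variants that are made outside S phase, from single genes whose mRNAs are polyadenylated, were set beside the clustered genes. Of 14 variant genes listed, 9 were measured, 0 were called by edgeR in either direction, with 2 at an unadjusted p under 0.05, 0 were called by DESeq2 and 0 by Cuffdiff in the authors' deposited table. Their median was -0.08, against -0.64 for the clustered rows, and the difference was not tested. H3f3b, which encodes the replacement histone H3.3, had 90.3 FPKM in CDAA_PTS and 87.7 FPKM in CDAA (0.04, edgeR adjusted p 0.95, authors' deposited table). H2afz, the variant found around active promoters, had 10.3 FPKM in CDAA_PTS and 12.4 FPKM in CDAA (-0.19, edgeR adjusted p 0.73, authors' deposited table). H2afx, phosphorylated at DNA breaks and known to be expressed in both polyadenylated and stem-loop forms, had 2.86 FPKM in CDAA_PTS and 4.16 FPKM in CDAA (-0.54, edgeR adjusted p 0.32, authors' deposited table). H3f3a is listed at 0 FPKM in CDAA_PTS, with 0.0766 FPKM in CDAA, at -0.32 (edgeR adjusted p 0.87, authors' deposited table). H1f0 was among the 14 listed genes but not among the 9 measured.

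Genes that transcribe or trim histone mRNA were measured for 26 of 28 listed, and 3 were called lower and 0 higher, around a median of 0.04 in the authors' deposited table. Cpsf2, which encodes the CPSF100 subunit of the cleavage complexes that cut both polyadenylated and histone mRNA, had 12.9 FPKM in CDAA_PTS and 27.3 FPKM in CDAA (-1.09, edgeR adjusted p 1e-06, authors' deposited table), and all 3 tools called it. Cdk2, the kinase that phosphorylates the histone gene activator Npat, had 3.38 FPKM in CDAA_PTS and 5.23 FPKM in CDAA (-0.62, edgeR adjusted p 0.0135, authors' deposited table). Ccne1, its cyclin, had 0.880 FPKM in CDAA_PTS and 1.82 FPKM in CDAA (-1.02, edgeR adjusted p 0.010, authors' deposited table). Slbp had 12.0 FPKM in CDAA_PTS and 11.5 FPKM in CDAA (0.05, edgeR adjusted p 0.94, authors' deposited table), and Npat had 6.77 FPKM in CDAA_PTS and 6.31 FPKM in CDAA (0.14, edgeR adjusted p 0.64, authors' deposited table). Histone chaperones, which carry new histones to DNA, gave 0 calls among 28 rows by edgeR, 0 by DESeq2 and 0 by Cuffdiff, with 4 at an unadjusted edgeR p under 0.05, and a median of -0.09 in the authors' deposited table.

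The cell cycle lists had medians closer to 0 than the histone rows, a difference that was not tested. All 41 listed S phase genes were measured, 1 was called lower (Ccne1) and 0 higher by edgeR, 31 were below 0, and the median was -0.17 in the authors' deposited table. At an unadjusted edgeR p under 0.05 stood 8 of them, 7 lower and 1 higher in CDAA_PTS. Mcm5, a subunit of the replicative helicase chosen after its values were seen, had 1.33 FPKM in CDAA_PTS and 2.13 FPKM in CDAA and was called by Cuffdiff but not by edgeR (-0.75, edgeR adjusted p 0.24, Cuffdiff q 0.042, authors' deposited table). Mcm10, also chosen after its values were seen, went the other way, with 3.63 FPKM in CDAA_PTS and 2.17 FPKM in CDAA. Cuffdiff called it higher and edgeR did not (0.72, edgeR adjusted p 0.30, Cuffdiff q 0.0019, authors' deposited table). The summed level of the S phase list was 185 FPKM in CDAA_PTS and 197 FPKM in CDAA. Pcna, the replication clamp, had 23.3 FPKM in CDAA_PTS and 20.9 FPKM in CDAA (0.14, edgeR adjusted p 0.77, authors' deposited table). The G2 and M phase list had 23 of 24 genes measured, 0 called by edgeR, DESeq2 or Cuffdiff, 0 at an unadjusted edgeR p under 0.05, and a median of -0.05, with sums of 67.2 FPKM in CDAA_PTS and 67.0 FPKM in CDAA in the authors' deposited table. Mki67, the proliferation marker Ki-67, had 3.25 FPKM in CDAA_PTS and 4.31 FPKM in CDAA (-0.41, edgeR adjusted p 0.53, authors' deposited table). The part of cell division in the histone values was not tested, and the genes of these lists share the 8 libraries with the histone rows.

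**Figure D5:**
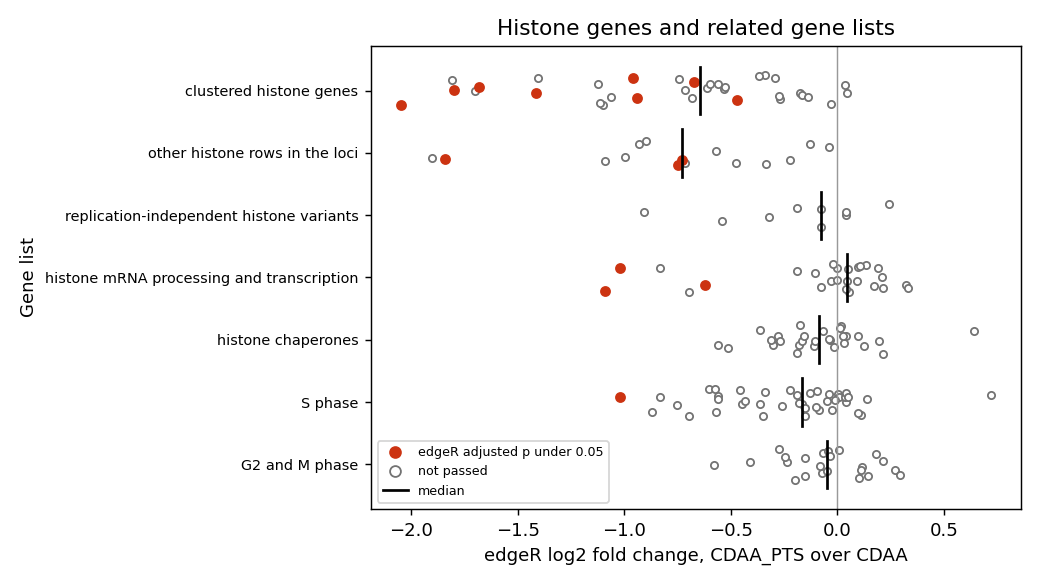
The edgeR log2 fold changes, CDAA_PTS over CDAA, of single genes (points) in the authors' deposited table, with list medians as vertical bars. Filled points are called at an adjusted p under 0.05. The clustered histone rows (median -0.64) and the other histone rows of the loci (-0.73) lie to the left of the variants (-0.08), the chaperones (-0.09) and the cell cycle lists (-0.17 and -0.05).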

How the data were processed

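Per the labels' protocols, Trizol RNA of frozen liver entered an Illumina TruSeq RNA kit. Genome build rn6, FastQC, TopHat2, Cufflinks, DESeq2 and edgeR appear without versions in the submitters' processing notes; the counter, the annotation, the models and the strand setting are not stated by the sources used here. The single deposited table has 1 row per gene and blocks of 3 tools, per the file headers. The authors' DESeq2 block gives a signal (mean count divided by size factors), moderated log2 fold changes and their standard errors, the Wald score, and p-values raw and adjusted. From edgeR the authors give log2 fold changes, the log2 mean CPM and p-values. From Cuffdiff they give 1 FPKM per group with the log2 ratio, test score, p-value and q-value. The number of per-sample columns set aside was 0.

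Without counts per library no count model was run here, and the authors' edgeR statistics took the place of one. Members, counts, medians and sums were computed with Python 3.11.15, pandas 2.3.3 and numpy 2.4.6, and the functions were tested on simulated rows. No source used here says how locus starts count. They were read as counting from 0 and raised by 1, because 26 of 30 member spans are then multiples of 3, against 1 of 30 otherwise. Histone class and cluster were read from the symbol. Genes named with full values were every member called by any of the 3 tools, the 3 members of the highest mean FPKM in each class, the 5 highest and 5 lowest fold changes at a mean of at least 1 CPM, every row of a repeated symbol, each list gene called in the edgeR block of the authors and a few preselected list genes; others are said to be chosen after their values were seen, or stand in a pair or locus. The members and the 13 gene lists were chosen with earlier results of these data known. Depth per library is unknown, and p-values measure variation between rats only as the authors' models estimated it. Alternatives were the other tools, FPKM ratios with pseudocounts of 0.1 and 1, a minimum of 1 CPM, 1 row per repeated symbol and the exclusion of shared loci.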

Additional observations from a re-analysis of the deposited data

How the results depend on the processing

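No paired analysis was possible because the authors' deposited table holds no value per library, and for the same reason no library could be left out. No row carried a Hist3 or Hist4 symbol, so those clusters gave no value. Of 80 alternative medians and summed ratios over 9 results, 76 were below 0 and 4 above. The number of called members moved from 8 by edgeR to 3 by Cuffdiff, and calls in the S phase list from 1 by edgeR to 3 by Cuffdiff (Ccne1 and Mcm5 lower, Mcm10 higher). With the moderated DESeq2 fold changes, the median came to -0.35 for all members and -0.38 for the Hist1 cluster. The class medians were -0.49 for H2A, -0.22 for H2B and -0.36 for H3. With FPKM ratios at a pseudocount of 1 they were -0.73 for H2A and -0.62 for H3. For H2B, Cuffdiff and both pseudocounts (0.1 and 1) gave -0.18. The H4 median turned to 0.12 by Cuffdiff and at both pseudocounts. With 1 row per symbol the H3 median was -1.11 and the Hist2 median -0.032. Without any row of a repeated symbol, an alternative chosen after seeing the data, they were -1.11 and 0.0015. The Hist2 value therefore rests on the Hist2h3c2 rows. The other 87 alternatives left their result within 1 median standard error of the members (0.20, DESeq2 block of the authors' deposited table) or, for counts, within 1.5 times. Of the members, 4 share 1 merged locus of rn6 (chromosome 17, 44756555 to 44793927) with each other and 1 other row, and 9 have a mean under 1 CPM, where few reads stand behind a value.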
